A study of Mus musculus with 10 samples.

Results

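The genes described here are those by which pyruvate enters the mitochondrion and becomes acetyl-CoA. They are the 5 core subunit genes of the pyruvate dehydrogenase complex (Pdha1, Pdhb, Dlat, Dld and Pdhx), 3 genes of the kinases that switch it off (Pdk1, Pdk2 and Pdk3) and both genes of the mitochondrial pyruvate carrier, listed in the count table under their older symbols Brp44l (now Mpc1) and Brp44 (now Mpc2). They were taken by gene symbol, 10 of the 20692 genes in the table, and all 10 were found.

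The libraries hold polyadenylated RNA from hearts of wild-type FVB/NJ mice, an inbred strain, 9 weeks old and labelled female. The tissue label reads whole heart, while the protocol describes the frozen ventricular apex. Of the 10 libraries, 5 came from mice 1 week after TAC (transverse aortic constriction), in which the aorta is narrowed by surgery so that the left ventricle pumps against a raised pressure, and 5 from sham-operated mice. No genetic change or drug is named for either group. The comparison asks how cardiac transcripts differ after 1 week of pressure overload.

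Pyruvate from glycolysis or lactate crosses the inner mitochondrial membrane through a carrier built of one Mpc1 and one Mpc2 protein. In the matrix the complex decarboxylates it on its thiamine-dependent E1 component, hands the acetyl group to coenzyme A through the swinging lipoyl arms of E2, and re-oxidises those arms on E3. Kinases phosphorylate the E1 alpha subunit and stop the reaction, and phosphatases restart it. The adult heart burns mainly fatty acids, and this kinase and phosphatase pair is known for setting how much pyruvate is oxidised beside them.

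Each library held between 7410967 and 10126574 counts. Values below are CPM (counts relative to library size, with sizes scaled by TMM factors), fold changes are TAC over sham, ± after a mean is the SD over 5 libraries and ± after a log2 fold change its standard error. Genes were tested with edgeR (quasi-likelihood), their p-values were adjusted by Benjamini-Hochberg over all 12001 tested genes, and 0.05 was the threshold. The defining heart muscle markers were all present. In TAC libraries the 8 cardiomyocyte markers summed to 53010 to 76740 CPM, and in sham libraries to 80920 to 95900 CPM. The library labelled TAC replicate 1 went against its female label, with 14 counts of Xist against 1042 to 1561 in the other 9 and 155 counts of the Y-linked gene Ddx3y against 0. The log2 fold changes of the genes that fell, and a few other results, are therefore also given without it. Shares and comparisons of gene lists use all 10 libraries. The submitters' processing notes list different aligner versions for the TAC and sham libraries, so that alignment and operation cannot be told apart.

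Of the 10 genes, 9 had enough counts to be tested. Of these 8 fell in TAC hearts, none rose and Pdk1 did not pass. Over all 12001 tested genes 17.0% fell and 18.8% rose, 35.8% in all. The median log2 fold change of the 9 genes was -0.32, beside 0.00 over all tested genes. The changes were small, between a fold of 0.736 (Pdk2) and 0.873 (Dlat) for those that fell. In 7 of the 9 every TAC library lay below every sham library, a separation in this direction seen in 11.6% of all tested genes. In none of the 9 did every TAC library lie above every sham library, which 12.2% of all tested genes did. Without the library labelled TAC replicate 1, 7 genes fell, Dlat being the one that no longer passed. Scaled by library totals alone instead of TMM factors, 6 fell, and Dlat and Pdhx did not pass. That scaling moved the median of all genes to 0.11 and the share of genes that rose among all calls to 73.8%, against 52.5% with TMM.

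**Figure D1:**
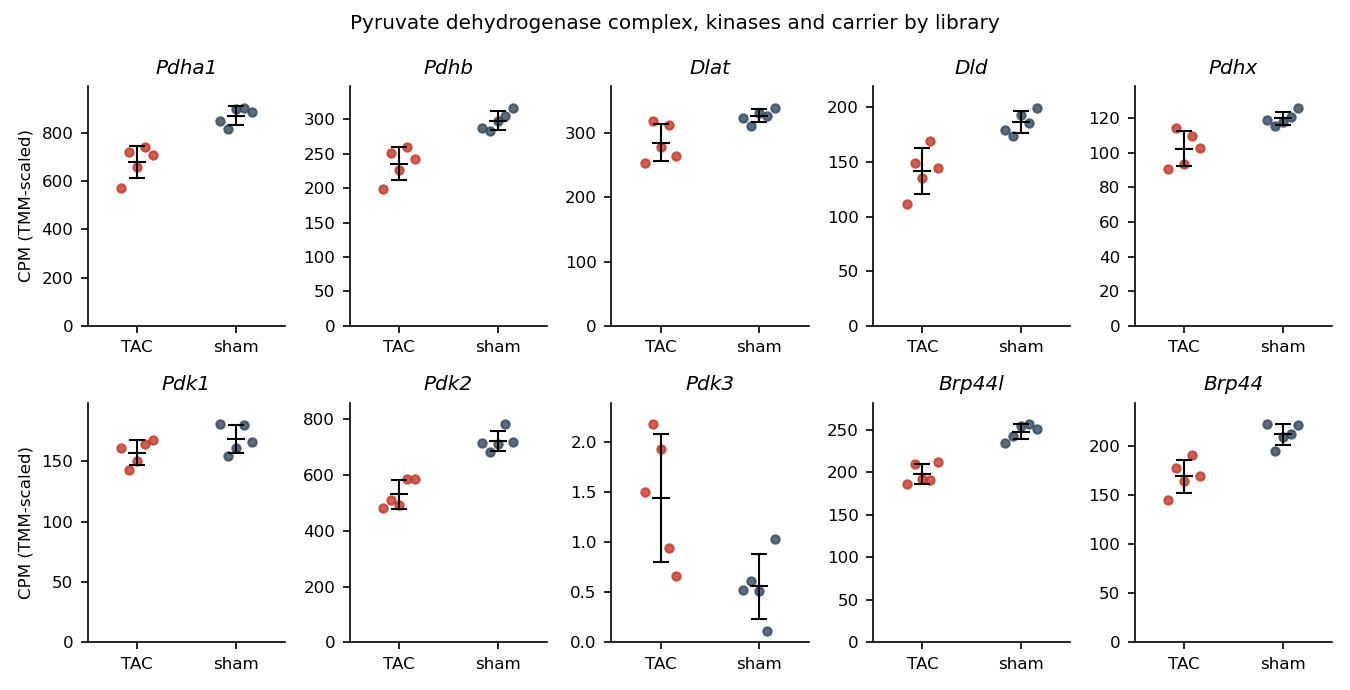
Level of each of the 10 genes in CPM, with each point 1 library and the bar the mean ± SD of 5 libraries, TAC left of sham. All TAC points lie below all sham points in Pdha1, Pdhb, Dld, Pdhx, Pdk2, Brp44l and Brp44, while the groups overlap in Dlat, Pdk1 and Pdk3.

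The E1 component carries the decarboxylation and is the part that the kinases act on. Pdha1 (ENSMUSG00000031299, chrX:160122209-160138413 on GRCm38, minus strand) encodes its alpha subunit, which bears the phosphorylated serines. In TAC replicates 1 to 5 it stood at 571, 718, 658, 739 and 709 CPM, and in sham replicates 1 to 5 at 848, 814, 899, 903 and 887 CPM. The highest TAC library was below the lowest sham library, and TAC replicate 1 was the lowest of all. The means were 679 ± 67.2 CPM in TAC and 870 ± 38.2 CPM in sham, and edgeR put the log2 fold change at -0.36 ± 0.07 (adjusted p = 0.00192).

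Pdhb (chr14:8165996-8173025), the beta subunit that completes E1, followed it closely. Its values were 199, 251, 226, 259 and 242 CPM in the TAC libraries, against 287, 282, 297, 305 and 316 CPM in the sham libraries. Again no TAC library reached a sham library. The log2 fold change was -0.34 ± 0.07 (adjusted p = 0.00248 by edgeR). Because both subunits are counted in the same library, their ratio needs no scaling between libraries. Pdha1 had 2.89 counts for each Pdhb count in TAC and 2.92 in sham (geometric means), a log2 difference of -0.02 with a 95% interval of -0.06 to 0.03 (exact two-sided permutation test, p = 0.373, adjusted p = 0.497 over 8 ratios, n = 5 each).

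Dlat (chr9:50634633-50659780) encodes E2, which forms the core of the complex and passes the acetyl group to coenzyme A. Its values were 254, 318, 278, 313 and 264 CPM in TAC and 324, 312, 331, 327 and 339 CPM in sham. TAC replicates 2 and 4 reached the lowest sham library, so the groups overlapped. Its call was the weakest of the 8 (log2 fold change -0.20 ± 0.07, adjusted p = 0.0376 by edgeR). Leaving out 1 library at a time ended the call in 7 of 10 cases (TAC replicates 1, 3 and 5, sham replicates 1, 3, 4 and 5), and so did library totals (log2 fold change -0.09, adjusted p = 0.220 by edgeR).

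Pdhx (chr2:103021075-103073513) encodes the E3-binding protein, a relative of E2 that tethers E3 to the core. It stood at 90.9, 114, 93.5, 110 and 103 CPM in TAC and at 119, 116, 118, 121 and 126 CPM in sham. The groups did not overlap, although TAC replicate 2 came close to the lowest sham library. The log2 fold change was -0.23 ± 0.07 (adjusted p = 0.0172 by edgeR), and with library totals it was -0.13 (adjusted p = 0.110 by edgeR). There were 2.79 Dlat counts for each Pdhx count in TAC and 2.73 in sham (log2 difference 0.03, 95% interval -0.05 to 0.11, exact permutation test, p = 0.444, adjusted p = 0.508 over 8 ratios). Dlat and Pdhx thus had the smallest falls of the core genes by estimate. Their edgeR 95% intervals, -0.34 to -0.05 and -0.37 to -0.08, overlapped that of Pdha1, -0.51 to -0.20. The difference from the other core genes was not tested.

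Dld (chr12:31331277-31351453) encodes E3, the flavoprotein that re-oxidises the lipoyl arms and that the 2-oxoglutarate and branched-chain 2-oxoacid dehydrogenase complexes also use. It had the widest spread of the 5 core genes among the TAC libraries, at 111, 149, 136, 169 and 145 CPM. The sham libraries held 179, 174, 193, 186 and 199 CPM. The coefficient of variation was 14.8% in TAC and 5.49% in sham, and 9.44% in TAC without replicate 1. Its log2 fold change was the most negative of the core, -0.39 ± 0.09 (adjusted p = 0.00467 by edgeR). Relative to Pdha1 it did not pass (log2 difference -0.04, 95% interval -0.13 to 0.05, exact permutation test, p = 0.333, adjusted p = 0.497 over 8 ratios).

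Summed over the 5 core genes, the level was 1444 ± 144 CPM in TAC and 1800 ± 70.9 CPM in sham. Per length of exon, Pdha1 made up 49.7% ± 0.83 of core reads in TAC and 50.9% ± 0.66 in sham. Pdhb took 16.7% ± 0.09 in TAC and 16.8% ± 0.30 in sham. Dlat took 16.0% ± 0.88 in TAC and 14.6% ± 0.23 in sham. These shares are a description with no test.

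**Figure D2:**
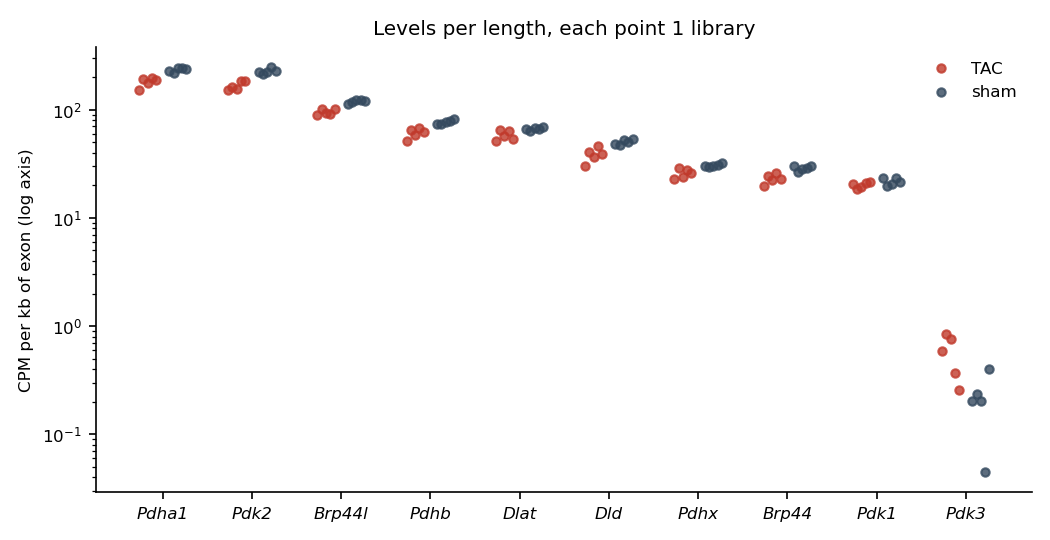
Levels per length, in CPM per kilobase of exon on a log axis, with each point 1 library and genes ordered by their sham mean. In both groups Pdha1 and Pdk2 lie highest with overlapping ranges, and Pdk3 lies far below the other 9 genes.

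Levels of different genes can be set side by side only per length, here the union of annotated exons. On that scale, in CPM per kilobase, the order was the same in both groups. Pdha1 led with 182 ± 18.0 in TAC and 233 ± 10.2 in sham, and Pdk2 followed with 168 ± 16.0 in TAC and 228 ± 11.6 in sham. The ranges of these neighbours overlapped in each group. Brp44l came next with 95.4 ± 5.67 in TAC and 119 ± 4.32 in sham, apart from the genes on either side. Pdhb, Dlat, Dld, Pdhx, Brp44 and Pdk1 followed in that order. Neighbouring ranges overlapped between Pdhb and Dlat and between Brp44 and Pdk1 in TAC alone, and between Pdhx and Brp44 in both groups. The other 4 core genes thus lay below Pdha1 in both groups, at 26.0 to 61.0 in TAC and 30.5 to 77.1 in sham. The order depends on the annotated exons.

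Pdk2 (ENSMUSG00000038967, chr11:95026258-95041354, minus strand), a kinase expressed in most tissues, stood at 480, 509, 492, 585 and 583 CPM in TAC and at 713, 681, 710, 781 and 717 CPM in sham. The highest TAC library lay below the lowest sham library. It had the most negative log2 fold change of the 9 tested genes, -0.44 ± 0.07 (fold 0.736, adjusted p = 0.000414 by edgeR).

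Pdk1 (ENSMUSG00000006494, chr2:71873224-71903858, plus strand) encodes a kinase known as a target of hypoxia-inducible factor. It held 161, 143, 151, 164 and 168 CPM in TAC and 181, 154, 161, 180 and 166 CPM in sham. These ranges overlapped. The log2 fold change was -0.10 ± 0.06 with a 95% interval of -0.24 to 0.04 (adjusted p = 0.246 by edgeR), and with library totals its sign turned (log2 fold change 0.01, adjusted p = 0.934 by edgeR).

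The difference between these kinases was tested directly by their ratio within each library. Pdk1 had 0.336, 0.281, 0.306, 0.280 and 0.287 counts for each Pdk2 count in TAC replicates 1 to 5, and 0.253, 0.226, 0.227, 0.231 and 0.231 in sham replicates 1 to 5. The ratio was above all sham libraries in 5 of 5 TAC libraries. Its log2 difference was 0.35 with a 95% interval of 0.23 to 0.49 (exact two-sided permutation test, p = 0.00794, the smallest that 5 against 5 libraries allow). Adjusted over the 8 ratios this p becomes 0.0635, which did not pass. That is the smallest adjusted p open to a ratio that reaches the smallest p alone. Limma on the same log2 ratios gave an adjusted p of 0.00117. Without TAC replicate 1 the difference was 0.30.

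The promoters of these 2 genes are shown because the ratio of their transcripts did not overlap between the groups. They are the bases just before the first listed RefSeq start of each gene (GRCm38.p6), 5' to 3' on the gene's strand. They lie at chr2:71872974-71873223 (plus strand) for Pdk1 and chr11:95041372-95041621 (minus strand) for Pdk2. Capitals mark ACGTG on either strand, the core shared by hypoxia response elements and E-boxes.
Pdk1: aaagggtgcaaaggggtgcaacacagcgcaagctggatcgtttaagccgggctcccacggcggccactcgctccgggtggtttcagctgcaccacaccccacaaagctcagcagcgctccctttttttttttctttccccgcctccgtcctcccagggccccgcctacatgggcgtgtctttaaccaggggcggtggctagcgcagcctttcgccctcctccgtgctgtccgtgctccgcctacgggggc
Pdk2: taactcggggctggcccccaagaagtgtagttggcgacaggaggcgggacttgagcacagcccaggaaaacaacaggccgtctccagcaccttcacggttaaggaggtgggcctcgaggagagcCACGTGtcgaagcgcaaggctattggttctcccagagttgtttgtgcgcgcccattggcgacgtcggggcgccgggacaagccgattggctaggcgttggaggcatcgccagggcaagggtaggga

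In the Pdk2 window the motif occurs on both strands and overlaps itself, between 126 and 121 bases before the start, where it forms a palindrome. The Pdk1 window holds none. A second RefSeq start is listed for each of these genes. The windows before it, at chr2:71874654-71874903 for Pdk1 and chr11:95040876-95041125 for Pdk2, are not printed and hold no ACGTG. Of the first promoters of the 10 genes, those of Pdhb, Pdk2 and Pdk3 hold ACGTG. Over 27018 promoters of the same length 16.6% do. The median share of G and C bases was 63.4% in the first promoters of the 10 genes and 52.0% over all promoters. The 16.6% is thus not matched for base composition, and no excess was tested. None of the 10 holds TNAAGGTCA, a site of oestrogen-related receptors found in 1.14% of promoters, or GCATGCGC, the core of the NRF1 site, found in 2.32%. A match or its absence describes the letters of this window only.

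Pdk3 (chrX:93764607-93832201) encodes a kinase that is scarce in heart, and its counts were few: 13, 16, 16, 9 and 6 in TAC replicates 1 to 5 and 5, 5, 4, 1 and 9 in sham replicates 1 to 5. The sums were 60 counts in TAC and 24 in sham, and the groups overlapped. It did not have enough counts to be tested with the others. When no gene was filtered out, edgeR gave a log2 fold change of 1.31 ± 0.44 (adjusted p = 0.0377), and DESeq2 gave 1.34 ± 0.50 (adjusted p = 0.0280). Relative to Pdk2 the log2 ratio was higher by 1.98 in TAC (95% interval 0.40 to 3.50, exact permutation test, p = 0.0159, adjusted p = 0.0635 over 8 ratios), in 4 of 5 TAC libraries above all sham libraries. At this depth counting error is large, about 28.9% of a TAC value and 45.6% of a sham value.

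As shares of the reads of these 3 kinases per length, Pdk2 took 88.9% ± 0.80 in TAC and 91.2% ± 0.38 in sham. Pdk1 took 10.8% ± 0.75 in TAC and 8.67% ± 0.38 in sham, and its lowest TAC share of 10.2% was above its highest sham share of 9.33%. Pdk3 took 0.31% ± 0.15 in TAC and 0.09% ± 0.05 in sham. Pdk2 was thus the main transcript of the 3 in every library. With Pdk4 counted as well, the order of the group means turned for Pdk2, at 67.2% ± 10.7 in TAC and 59.2% ± 19.7 in sham. The medians did not turn, at 67.0% in TAC and 67.4% in sham. The lowest sham share, 24.2%, was that of sham replicate 1, where Pdk4 stood at 2391 CPM. Pdk1 took 8.19% ± 1.74 in TAC and 5.56% ± 1.72 in sham with Pdk4 counted. By raw counts, not divided by length, Pdk1 took 22.9% ± 1.37 in TAC and 18.9% ± 0.73 in sham. Pdk2 and Pdha1, the kinase and its substrate, gave a log2 ratio lower by 0.08 in TAC (TAC minus sham -0.08, 95% interval -0.21 to 0.03, exact permutation test, p = 0.151, adjusted p = 0.302 over 8 ratios).

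**Figure D3:**
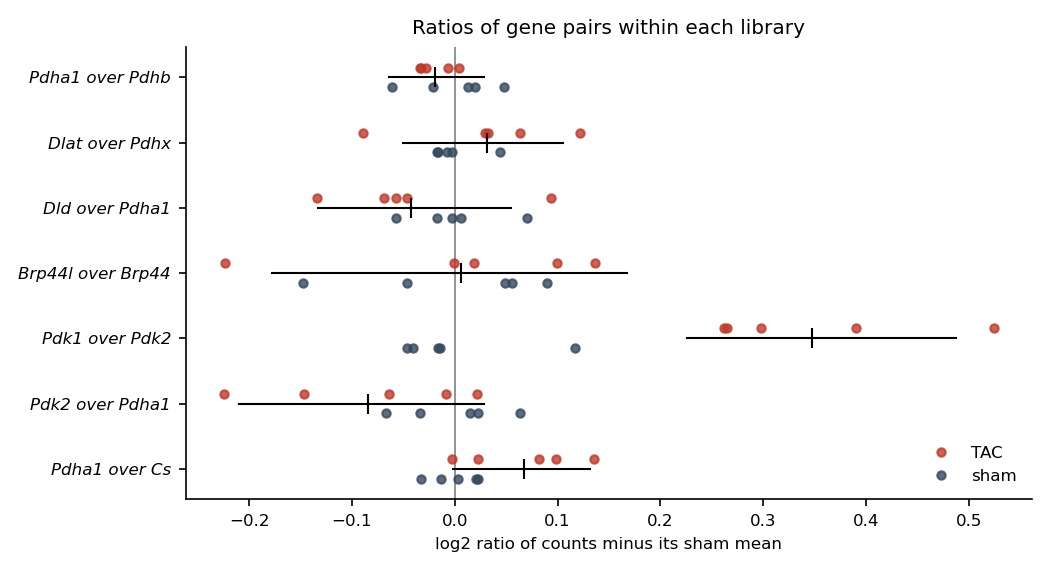
Log2 ratio of counts of gene pairs in each library, as the difference from its sham mean, TAC points above sham points, with the TAC minus sham difference (tick) and its 95% interval from the exact permutation test (line). Pdk1 over Pdk2 lies apart from zero by 0.35, and the intervals of the other 6 ratios drawn include zero; Pdk3 over Pdk2 is not drawn.

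Both genes of the carrier fell. Brp44l (Mpc1, ENSMUSG00000023861, chr17:8282904-8297661) stood at 187, 210, 193, 191 and 212 CPM in TAC and at 235, 243, 254, 257 and 251 CPM in sham. The groups did not overlap, and the coefficient of variation was 5.94% in TAC and 3.63% in sham. The log2 fold change was -0.32 ± 0.05 (adjusted p = 0.000657 by edgeR).

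Brp44 (Mpc2, ENSMUSG00000026568, chr1:165460637-165481214), whose protein pairs with that of Brp44l, had 145, 178, 165, 191 and 170 CPM in TAC and 223, 195, 209, 212 and 222 CPM in sham. No TAC library reached a sham library. By edgeR its log2 fold change of -0.32 ± 0.07 (adjusted p = 0.00332) had the same size as that of Brp44l. There were 1.17 Brp44l counts for each Brp44 count in each group (log2 difference 0.01, 95% interval -0.18 to 0.17, exact permutation test, p = 0.937, adjusted p = 0.937 over 8 ratios). Single libraries ranged from 1.00 to 1.29 in TAC and from 1.06 to 1.24 in sham.

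**Figure D4:**
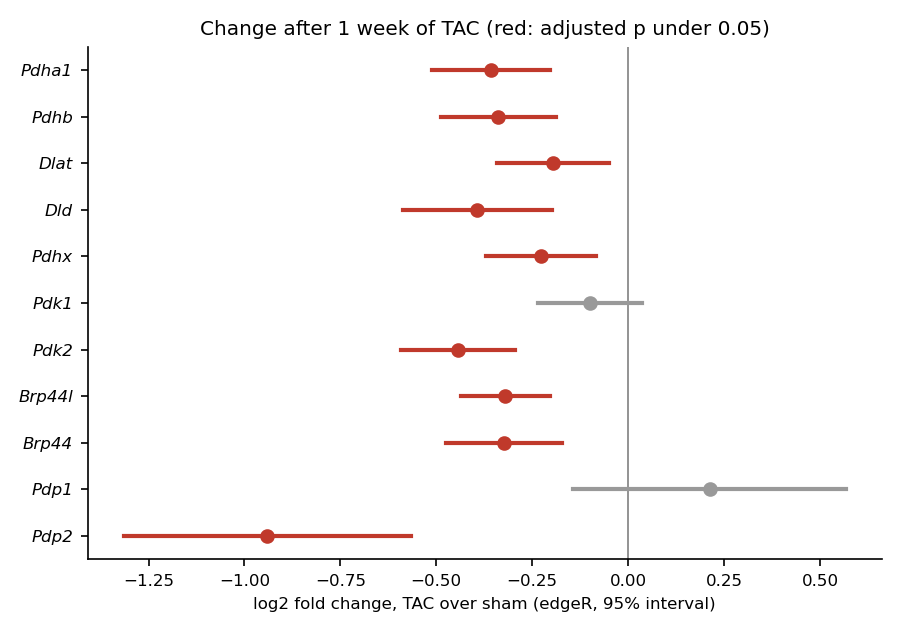
Log2 fold change, TAC over sham, with its 95% interval from edgeR, for the 9 tested genes and the phosphatases Pdp1 and Pdp2. The interval of Pdk1 crosses zero, the other 8 members lie below it, and Pdp2 lies lowest at -0.94.

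Of the other regulators of the complex, 3 were in the table and tested, and 1 fell. Pdp2, a phosphatase that removes the phosphates and so switches the complex on, was at 11.0, 18.8, 17.4, 24.3 and 20.4 CPM in TAC and at 31.9, 26.5, 35.9, 41.9 and 40.6 CPM in sham. Each TAC library lay below each sham library, and the log2 fold change was -0.94 ± 0.17 (fold 0.521, adjusted p = 0.00123 by edgeR). Pdp1, the calcium-stimulated phosphatase, averaged 11.8 ± 2.89 CPM in TAC and 10.2 ± 1.52 CPM in sham without passing, at 0.21 ± 0.16 on the log2 scale (adjusted p = 0.344 by edgeR).

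Pdk4, the kinase induced by fasting and fatty acids, stood at 86.7, 499, 205, 244 and 131 CPM in TAC and at 2391, 230, 305, 338 and 349 CPM in sham. Sham replicate 1 lay far above all other libraries. Its difference of -1.64 ± 0.65 on the log2 scale did not pass (adjusted p = 0.0664 by edgeR). It was -0.39 ± 0.38 without sham replicate 1 (adjusted p = 0.451 by edgeR), -2.12 without TAC replicate 2 and -1.86 without sham replicate 2, and the last 2 passed. Of the 8 genes that fell, sham replicate 1 was the lowest sham library in 1 and the highest in 1.

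Genes around the complex were described from lists. Of 15 tricarboxylic acid cycle genes, which burn the acetyl-CoA that the complex makes, all 15 fell, with a median of -0.42 on the log2 scale. The 4 with the smallest adjusted p were Idh2, Sdhc, Sdhb and Idh3g, with log2 fold changes of -0.68, -0.42, -0.41 and -0.48. Cs encodes citrate synthase, which takes up the acetyl group next. Pdha1 had 0.528, 0.518, 0.550, 0.556 and 0.570 counts for each Cs count in TAC and 0.515, 0.527, 0.508, 0.528 and 0.520 in sham. TAC replicates 3, 4 and 5 lay above every sham library, and TAC replicate 1 was level with the highest of them at these digits. The log2 difference of 0.07 did not pass (95% interval -0.0014 to 0.13, exact permutation test, p = 0.0556, adjusted p = 0.148 over 8 ratios).

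Sister complexes that work by the same lipoyl chemistry fell as well. Of 11 tested genes of the 2-oxoglutarate, branched-chain, 2-oxoadipate and glycine systems, 10 fell, Amt being the exception, and the median was -0.57 on the log2 scale. Bckdhb and Bckdha, the E1 subunits of the branched-chain complex, were at 0.646 and 0.595 of their sham level. Ppm1k, its phosphatase, was at 0.602 and Ogdhl, a relative of the 2-oxoglutarate E1 subunit, at 0.594. These 4 were named for their small adjusted p. Ogdh, Dlst, Bckdk and Gcsh, other members of the list that fell, were at 0.767, 0.800, 0.811 and 0.811, within the range of the 8 pyruvate genes that fell. Dbt and Dhtkd1, the rest of those that fell, were at 0.674 and 0.597, below that range like the 4 named above. The difference between the lists was not tested.

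Genes that make or divert pyruvate were mixed. Of 11 tested, there were 6 that fell, 1 that rose and 4 without a call, around a median of -0.32 on the log2 scale. Me3, a mitochondrial malic enzyme, Ldhb, the lactate dehydrogenase subunit typical of heart, Gpt, an alanine aminotransferase, and Me1, the cytosolic malic enzyme, were at 0.743, 0.722, 0.694 and 0.803 of their sham level. Slc16a3, a lactate exporter, was the gene that rose (fold 1.84), from a low level of 12.7 ± 4.27 CPM in TAC and 6.82 ± 1.23 CPM in sham. Ldha and Pkm2, the last steps of anaerobic glycolysis, had log2 fold changes of 0.00 ± 0.06 and -0.09 ± 0.07 and did not pass.

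Of 7 tested genes that supply cofactors, there were 3 that fell and 4 without a call, around a median of -0.03 on the log2 scale. Slc25a42, a mitochondrial carrier of coenzyme A, averaged 78.4 ± 10.8 CPM in TAC and 135 ± 18.9 CPM in sham (fold 0.580). Lias, which makes the lipoyl groups of E2, was at 0.848 of its sham level, and with library totals it did not pass (adjusted p = 0.107 by edgeR).

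The library labelled TAC replicate 1 was the lowest TAC library in 8 of the 8 genes that fell. It was also the lowest in 54.3% of the 2040 genes that fell over the whole table, and in 27.0% of all tested genes. Pdk1 and Pdk3 did not follow, with their lowest TAC values in replicates 2 and 5. Of the 8 genes that fell, TAC replicate 4 was the highest in 5. Among sham libraries, replicate 2 was the lowest in 7 and replicate 5 the highest in 4. TAC replicate 1 also had the lowest sum of cardiomyocyte markers, 53010 CPM against 65320 to 76740 CPM in the other TAC libraries. Its fibroblast markers summed to 5568 CPM, against 1893 to 2287 CPM in the other TAC libraries. Without it the log2 fold changes of Pdha1, Pdk2 and Dld were -0.30, -0.41 and -0.32. Those of Pdhb, Pdhx, Brp44l and Brp44 were -0.28, -0.19, -0.30 and -0.27. Each of these genes was still called, while Dlat, at -0.16, was not.

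**Figure D5:**
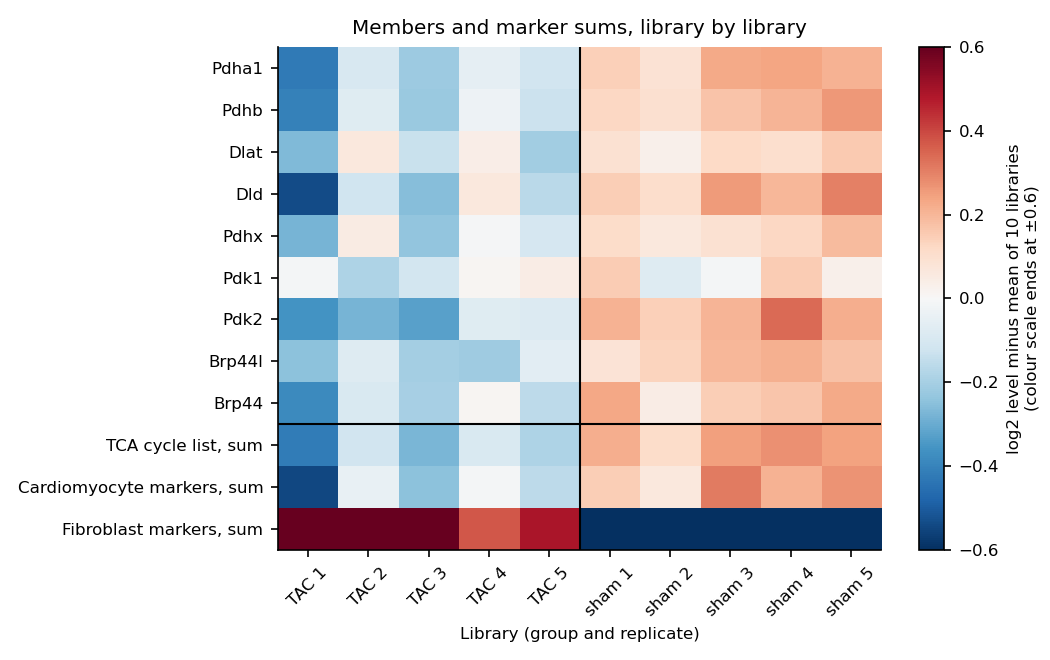
Log2 level of 9 genes, of the summed tricarboxylic acid cycle (TCA) list and of summed cardiomyocyte and fibroblast markers, as the difference from the mean of the 10 libraries, with 1 column a library and TAC columns left of sham columns. TAC replicate 1 is the bluest column in the rows of the 8 genes that fell, in the TCA row and in the cardiomyocyte row, Pdk1 shows no such column, and the fibroblast row runs the other way and past the ends of the scale.

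Markers of cell types moved with the groups. Of 8 cardiomyocyte markers 7 fell and none rose with a median of -0.42 on the log2 scale, beside -0.32 for the 9 pyruvate genes. Of 7 fibroblast markers 6 rose, with sums of 1893 to 5568 CPM in TAC and 684 to 925 CPM in sham. Of 7 macrophage markers 6 rose, with sums of 251 to 411 CPM in TAC and 158 to 189 CPM in sham. Of 6 endothelial markers 2 rose, and none of 5 smooth muscle and none of 2 tested adipocyte markers passed. One lymphocyte marker and 1 atrial marker were called, both higher in TAC, among 1 and 2 tested. No marker was at 0 in all libraries. In whole tissue, fewer cells of a type and less RNA per cell cannot be told apart, and the part of cell makeup in the falls was not tested.

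The genes whose profile over the 10 libraries was most like that of the core were sought among 8340 genes outside the set whose log2 CPM averaged 3 or more. Predicted genes and unnamed clones had been left out of these. The measure was the root mean square difference between a gene's log2 CPM, centred on its own mean, and the mean of the centred values of the 5 core genes. The nearest 6 were Ckm, Myl3, Fastk, Mdh2, Cycs and Uqcrc2, with differences of 0.03 to 0.04 on the log2 scale. Ckm encodes muscle creatine kinase, Myl3 a ventricular myosin light chain, Mdh2 mitochondrial malate dehydrogenase, Cycs cytochrome c and Uqcrc2 a subunit of respiratory complex III. Of the core genes themselves, which the mean includes, Pdhb was at 0.02, Pdha1 at 0.04, Pdhx at 0.05 and both Dlat and Dld at 0.07. Of the 5 core genes, 4 lay farther from their own mean than the 6 outside genes. Those 6 were picked as the nearest of 8340 by this same measure, so this does not show how alike the core genes are. Of the other members, Brp44 was at 0.04, Brp44l at 0.09, Pdk2 at 0.11, Pdk1 at 0.17 and Pdk3 at 0.92. The likeness is a description over 10 libraries that share the group difference.

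Some reads may be shared with near copies or overlapping genes. On GENCODE M21 transcripts, Pdhb aligned over 1079 bases to the processed pseudogene Gm6123 at 97.0% identity, and Brp44l over 330 bases to Mpc1-ps at 99.7%, so their counts are uncertain to that extent. Dld also matched stretches of 61 to 192 bases in 28 other genes at 95% identity or more, and is uncertain there too. Pdha1 shares 603 exon bases with Map3k15 on the opposite strand, which the libraries cannot tell apart. Map3k15 held 77 counts in all libraries together, against 29225 counts of Pdha1 in TAC and 37360 in sham. How reads of the shared stretch were counted is not known, so the 77 counts do not measure the overlap. Brp44l shares 480 exon bases with 4930506C21Rik, also on the opposite strand, for which there are no counts.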

How the data were processed

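The deposited table gives read counts per Ensembl gene, whole numbers that are not normalized, for 10 libraries made without strand information, per the labels' protocols. The submitters' processing notes list Bowtie, TopHat 1.3.0 and HTSeq with mm9 and mm10 for TAC, and Bowtie2, TopHat2 2.0.10 and HTSeq with mm10 for sham, and the file header names GRCm37. How HTSeq was set is not given in the sources used here. The titles name TAC, and the sham group comes from the series design text. No label ties a library to an animal, so p-values measure the spread between these libraries. How such versions place reads of near copies may differ.

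From these counts, edgeR 4.0.16 (R 4.3.3) ran quasi-likelihood tests with TMM factors, filterByExpr (minimum count 10, total 15) and group as the only term. Log2 CPM used a prior count of 2. The 12 rows without a gene symbol were kept under their Ensembl IDs. Ratios of counts were tested by exact permutation over all divisions into 5 and 5, and their intervals hold the shifts that this test does not reject at 0.05. Alternatives were library totals, DESeq2 size factors, no filter, DESeq2 1.42.0, limma-voom (limma 3.58.1), robust dispersion, replicate number as a block and leaving out libraries. Between libraries of a group, chi-square divided by genes was 2.58 to 23.6 (20 pairs), so none was treated as a repeat. Same-numbered libraries deviated with correlations of -0.09 to 0.22, and the numbers were not taken as pairs.

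Exon lengths, positions and near copies (at least 50 bases at 95% identity) come from GENCODE M21 (GRCm38), matched by Ensembl ID, and promoters from RefSeq (GRCm38.p6), in which all 10 genes matched. Protein sequences were not used here. The members and lists were chosen with earlier results of these data known. Named were all members, the other regulators, up to 4 genes per list, by smallest adjusted p, and the 6 genes most like the core. Amt, Ldha, Pkm2, Slc16a3, Ogdh, Dlst, Bckdk, Gcsh, Dbt, Dhtkd1 and the promoters printed were chosen after values were seen. Of the regulators, Pdpr is not analysed here, and some genes that the rule names are not reported here. The methods were tested on simulated data. Counting error was large in genes of few counts such as Pdk3. It also came near the whole sham spread of Pdhx, at 3.12% against a coefficient of variation of 3.26%.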

Additional observations from a re-analysis of the deposited data

Results flagged for a closer look

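Sham replicate 1 stood far above the other sham libraries in Pdk4, at 2390 CPM against 230 to 349 CPM. In the log2 ratio of Pdk1 over Pdk2 the same library was the highest of the sham libraries, at -1.98 against -2.14 to -2.11, and below every TAC library. Sham replicate 3 was the highest in the log2 ratio of Dlat over Pdhx, at 1.49 against 1.43 to 1.45. Such a gap to the nearest library was looked for in 86 groups of 5, and chance gives it in about 1 group in 20.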

How the results depend on the processing

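Of 34 named and tested genes, alternatives gave 611 values, of which 596 kept direction and side of the threshold, 12 lost the call, 2 gained it and 1 turned in sign, that of Pdk1 with library totals (0.00841). The call of Dlat ended in 7 of 10 sets that left out a library, with the replicate block (-0.20, adjusted p = 0.0577 by edgeR), with library totals, and without both TAC replicate 1 and sham replicate 1, an alternative chosen after seeing the data (-0.16, adjusted p = 0.0866). With the replicate block 7 of the members fell. Pdk4 passed without TAC replicate 2 (-2.12) and without sham replicate 2 (-1.86). Without a filter on low counts and with DESeq2, 1 member, Pdk3, rose. With library totals 1159 genes fell and 3257 rose, so that genes that rose made up 73.8% of calls in place of 52.5%. The Brp44l over Brp44 difference turned in sign with medians (-0.0296) and ranged from -0.031 to 0.0634 when libraries were left out one by one. Over those sets Pdk1 over Pdk2 ranged from 0.30 to 0.38 and Pdha1 over Cs from 0.05 to 0.0846, each passing (adjusted p = 0.0317, exact permutation test) without TAC replicate 2. Limma raised Pdk1 over Pdk2 (0.35) and Pdk3 over Pdk2 (1.98) past the threshold. With Pdk4 counted as a kinase, Pdk1 took 8.19% in TAC and 5.56% in sham. Pdk2 then took 67.2% in TAC and 59.2% in sham on average, with medians of 67.0% in TAC and 67.4% in sham. By raw counts Pdk1 took 22.9% in TAC and 18.9% in sham, and Pdk2 76.9% in TAC and 81.0% in sham. The cause of these shifts was not tested.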
